A study of Mus musculus with 24 samples.

Results

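The pyruvate dehydrogenase kinases and the other genes that set the entry of pyruvate into the mitochondrial citric acid cycle were examined in fasted mouse liver. They are 10 of the 35275 genes in the deposited count table, picked out by their symbols: the kinases Pdk1, Pdk2, Pdk3 and Pdk4, the phosphatases Pdp1 and Pdp2, the E1 subunits Pdha1 and Pdhb, and the carrier subunits Mpc1 and Mpc2. Liver RNA came from male C57BL/6 mice 8 to 10 weeks of age, fasted for 24 h, with 4 libraries in each of 6 groups and single 75-base reads. Control livers are called wild type in the labels, and the methods of the study describe them as littermates with floxed alleles of Tsc1 and Cpt2. Tsc1 L-/- livers lack Tsc1, the brake on the growth kinase complex mTorc1, and Cpt2 L-/- livers lack Cpt2, the carnitine palmitoyltransferase needed to burn long-chain fatty acids in mitochondria. DKO livers (Tsc1Cpt2 L-/-) lack both, and in these 3 groups the study describes the deletion as liver-specific, with an albumin-driven Cre. Chow is the diet given for these 3 groups and the control. Ppara KO and Cpt2 Ppara KO livers lack the fatty acid-sensing nuclear receptor Pparα, without and with loss of Cpt2, and the methods of the study do not describe these 2 groups. In comparisons of these groups with control or Cpt2 L-/- livers, a difference of cohort and the loss of Pparα cannot be told apart. The labels give the libraries of a group as separate samples and say no more, so p-values measure the spread between these samples.

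The pyruvate dehydrogenase complex turns pyruvate into acetyl-CoA and so commits carbohydrate carbon to oxidation or fat synthesis. The kinases switch it off by phosphorylating its E1 subunit, and the phosphatases switch it on again. The kinase Pdk4 is known for its rise with fasting and fatty acid supply in liver, heart and muscle, and its gene is a textbook target of Pparα and of the forkhead factor Foxo1. A carrier made of Mpc1 and Mpc2 brings pyruvate across the inner mitochondrial membrane before any of this can happen.

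Promoter sequence of the 2 kinases whose changes lead the results, Pdk4 in Cpt2 L-/- livers and Pdk2 in Tsc1 L-/- livers, is shown first, as the 250 bases before the RefSeq start in GRCm38.p6. Capitals mark the letters CCAAT on either strand (ATTGG when read from the other). The Pdk4 window lies at chr6:5496279-5496528 and the Pdk2 window at chr11:95041372-95041621, both on the minus strand. The table holds another Pdk2 window at chr11:95040876-95041125, with 0 such matches, which is not shown.
Pdk4: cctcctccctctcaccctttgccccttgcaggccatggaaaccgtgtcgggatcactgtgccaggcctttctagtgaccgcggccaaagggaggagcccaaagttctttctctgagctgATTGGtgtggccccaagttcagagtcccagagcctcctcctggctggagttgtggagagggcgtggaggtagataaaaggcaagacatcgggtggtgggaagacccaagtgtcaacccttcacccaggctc
Pdk2: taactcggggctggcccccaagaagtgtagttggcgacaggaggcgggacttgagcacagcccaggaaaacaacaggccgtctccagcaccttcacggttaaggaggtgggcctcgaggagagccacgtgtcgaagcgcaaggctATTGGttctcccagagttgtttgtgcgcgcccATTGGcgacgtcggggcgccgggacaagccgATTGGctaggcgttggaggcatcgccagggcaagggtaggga
The Pdk4 window held 1 such match and the Pdk2 window 3, and 33.8% of all 32851 promoter windows in the RefSeq table held at least 1. Searched on both strands, the nuclear receptor letters AGGTCA were in neither window and in 14% of all windows, 2 such sites with 1 base between (AGGTCANAGGTCA) in neither and in 0.0335%, and the forkhead letters GTAAACA in neither and in 3.17%. A match or its absence only describes these letters in these windows.

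Total counts per library ran from 14470968 to 20371204, and levels are given in CPM, for which edgeR divided each count by the scaled total of its library. The deleted genes were checked first. Ppara was at 13.0 to 91.9 CPM in the 8 libraries labelled as lacking it and at 137 to 385 CPM in the other 16. Tsc1 was at 15.5 to 28.6 CPM in the 8 libraries of Tsc1 L-/- and DKO livers. In the other 4 groups it was at 36.8 to 53.5 CPM, except in Cpt2 Ppara KO replicate 1, where it was at 24.3 CPM although the label names no loss of Tsc1. The count of the whole Cpt2 gene does not check its label: it was at 80.3 to 105 CPM in Cpt2 L-/- livers and at 87.8 to 104 CPM in control livers. Cpt2 was also at 96.1 CPM in Ppara KO replicate 1 and at 125 CPM in Cpt2 Ppara KO replicate 1, beside 31.7 to 50.9 CPM in the other 6 libraries of these groups. The mean correlation of a library with its own group was 0.943 to 0.981 and was lowest in Cpt2 Ppara KO replicate 1. Ppara KO replicate 4 came next at 0.945, below Ppara KO replicate 1 at 0.955. Ppara KO replicate 1 was thus singled out for its Cpt2 level, not for this correlation. Whether the labels of Ppara KO replicate 1 and Cpt2 Ppara KO replicate 1 are right was not tested, so the calls in the groups without Pparα are also given without these libraries. The 5 hepatocyte markers were read in every group, with a summed level of 59400 to 75600 CPM in control livers. This sum was 26700 to 33100 CPM in DKO, 33500 to 56500 CPM in Cpt2 L-/- and 38200 to 54500 CPM in Cpt2 Ppara KO livers, all below every control library, beside 37300 to 60600 CPM in Tsc1 L-/- and 53000 to 71500 CPM in Ppara KO livers. Lymphocyte markers summed to 9.21 to 15.4 CPM in control, 4.46 to 7.47 CPM in DKO and 3.71 to 8.63 CPM in Ppara KO livers, and 5 stellate cell and fibroblast markers summed to 143 to 182 CPM in DKO and 216 to 280 CPM in control livers. The part of these in the member results was not tested. In bulk liver, fewer cells of a type and less RNA per cell cannot be told apart.

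Among the kinases, Pdk4 was a minor transcript in control liver and the major one in Cpt2 L-/- liver, where Pdk1 fell and Pdk2 did not pass the test. Levels of different genes were compared in FPKM, reads scaled to gene length and library size. In control livers Pdk2 was the leading kinase at 42.0 ± 4.80 FPKM (SD, n = 4), followed by Pdk1 at 16.3 ± 2.71 FPKM and Pdk4 at 4.75 ± 1.54 FPKM. The order turned in Cpt2 L-/- livers, with Pdk4 at 159 ± 39.2 FPKM, Pdk2 at 44.9 ± 5.05 FPKM and Pdk1 at 9.83 ± 1.69 FPKM. Pdk3 stayed between 0.0263 and 0.881 FPKM over all 24 libraries.

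Pdk4 (ENSMUSG00000019577, chr6:5483351-5496309) encodes the starvation-responsive kinase of the complex. Its level in control livers was 12.5, 20.1, 22.8 and 13.1 CPM in replicates 1 to 4. The Cpt2 L-/- libraries had 512, 358, 656 and 670 CPM. The lowest Cpt2 L-/- library was therefore far above the highest control library, and the groups did not overlap. Its rise was 31.4-fold (log2 4.97, 95% interval 3.88 to 6.07, edgeR adjusted p = 1.04e-05), and only 15 of 13641 tested genes had a larger fitted rise in this comparison. In DKO livers Pdk4 was at 278, 507, 682 and 1375 CPM, which is above every control library. Against control this was a 41.2-fold rise (log2 5.37, 95% interval 4.25 to 6.48, adjusted p = 3.96e-06).

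Loss of Tsc1 did not move Pdk4 past the threshold in either background. In Tsc1 L-/- livers it was at 8.10, 8.61, 4.48 and 14.95 CPM. Of these libraries 3 lay below every control library and the fourth lay inside the control range. The difference from control was -0.92 on the log2 scale (95% interval -1.90 to 0.05, adjusted p = 0.268 with edgeR). Between DKO and Cpt2 L-/- livers it was 0.39 (95% interval -0.53 to 1.31, adjusted p = 0.563), and without DKO replicate 4, the highest library, it turned to -0.15 (adjusted p = 0.819). The interaction of the 2 deletions, which asks whether Cpt2 loss changed Pdk4 by another amount once Tsc1 was gone, was 1.32 on the log2 scale (95% interval -0.02 to 2.66, adjusted p = 0.274). The rise from Tsc1 L-/- to DKO livers was 78.2-fold (log2 6.29, adjusted p = 2.58e-06), and 5 tested genes had a larger one.

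In livers without Pparα the level of Pdk4 differed widely between libraries of the same group. In Ppara KO livers it was at 22.7, 198, 284 and 16.4 CPM. Replicates 2 and 3 lay far above the control libraries, while replicates 1 and 4 lay inside the control range. The fitted difference from control was 2.93 on the log2 scale (95% interval 1.06 to 4.80, edgeR adjusted p = 0.0283), or 3.28 without Ppara KO replicate 1 (adjusted p = 0.00903). This call was lost when Ppara KO replicate 2 (2.64, adjusted p = 0.0909) or replicate 3 (2.24, adjusted p = 0.0805) was left out, and also without any 1 of the control libraries (adjusted p = 0.0517 to 0.0669). Residual Ppara counts moved with these libraries: Ppara was at 13.0 and 13.1 CPM in replicates 2 and 3, and at 45.2 and 38.1 CPM in replicates 1 and 4, and its part in the Pdk4 values was not tested. The summed level of 4 bile duct markers moved with them too, at 27.1 and 28.9 CPM in replicates 2 and 3, 12.6 and 14.4 CPM in replicates 1 and 4 and 4.74 to 9.86 CPM in control livers, and its part was not tested. So did Foxo1, at 103 and 100 CPM in replicates 2 and 3 and at 40.3 and 60.9 CPM in replicates 1 and 4. Control livers had 36.1 to 69.0 CPM of Foxo1, and its part was not tested.

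Cpt2 Ppara KO livers had far less Pdk4 than Cpt2 L-/- livers. The 4 libraries were at 190, 51.3, 17.2 and 28.4 CPM, all below the lowest Cpt2 L-/- library. Replicate 1, the library that stands apart, was the highest of them and also had the most Ppara of its group, at 91.9 CPM. In the other 3, Ppara was at 26.2, 46.2 and 41.2 CPM in replicates 2, 3 and 4, so that among these the library with the least Ppara had the most Pdk4. Foxo1 was at 11.15, 29.15, 31.85 and 43.3 CPM in replicates 1 to 4, lowest in the library with the most Pdk4. The summed level of 4 liver endothelial markers was 80.7 CPM in replicate 1, the lowest of its group. Kupffer cell and macrophage markers summed to 167 to 209 CPM in Cpt2 Ppara KO and 110 to 164 CPM in Cpt2 L-/- livers, and erythroid markers to 355 to 825 and 126 to 349 CPM. The part of these in the differences between the groups was not tested. Pdk4 was 7.73-fold lower than in Cpt2 L-/- livers (log2 -2.95, 95% interval -4.39 to -1.51, edgeR adjusted p = 0.0177), and without replicate 1 the difference was -4.09 (adjusted p = 3.51e-05). The call was lost without Cpt2 L-/- replicate 3 (-2.85, adjusted p = 0.0506) or 4 (-2.86, adjusted p = 0.0522), or without Cpt2 Ppara KO replicate 2 (-2.82, adjusted p = 0.0654). Against Ppara KO livers the difference was -0.89 (95% interval -2.87 to 1.10, adjusted p = 0.536), or -2.05 without Cpt2 Ppara KO replicate 1 (adjusted p = 0.263). Whether Cpt2 loss changed Pdk4 by a like amount with and without Pparα was tested as an interaction in 1 fit of 16 libraries. It was -5.86 on the log2 scale (95% interval -8.36 to -3.36, adjusted p = 0.00334), -7.01 without Cpt2 Ppara KO replicate 1 (adjusted p = 0.00163), and it held with each of the 16 libraries left out in turn.

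In order of the mean CPM, Pdk4 was highest in DKO livers at 711 ± 473 (SD, n = 4), followed by Cpt2 L-/- at 549 ± 146, Ppara KO at 130 ± 133, Cpt2 Ppara KO at 71.8 ± 80.4, control at 17.1 ± 5.09 and Tsc1 L-/- at 9.04 ± 4.35 CPM. DKO and Cpt2 L-/- livers, Ppara KO and Cpt2 Ppara KO livers, and control and Tsc1 L-/- livers were neighbours in this order whose difference did not pass the test. Cpt2 L-/- and Ppara KO livers are also neighbours and were not compared by a test, and neither were Cpt2 Ppara KO and control livers. Of the 4 Cpt2 Ppara KO libraries, 1 lay inside the control range and 3 above it.

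**Figure D1:**
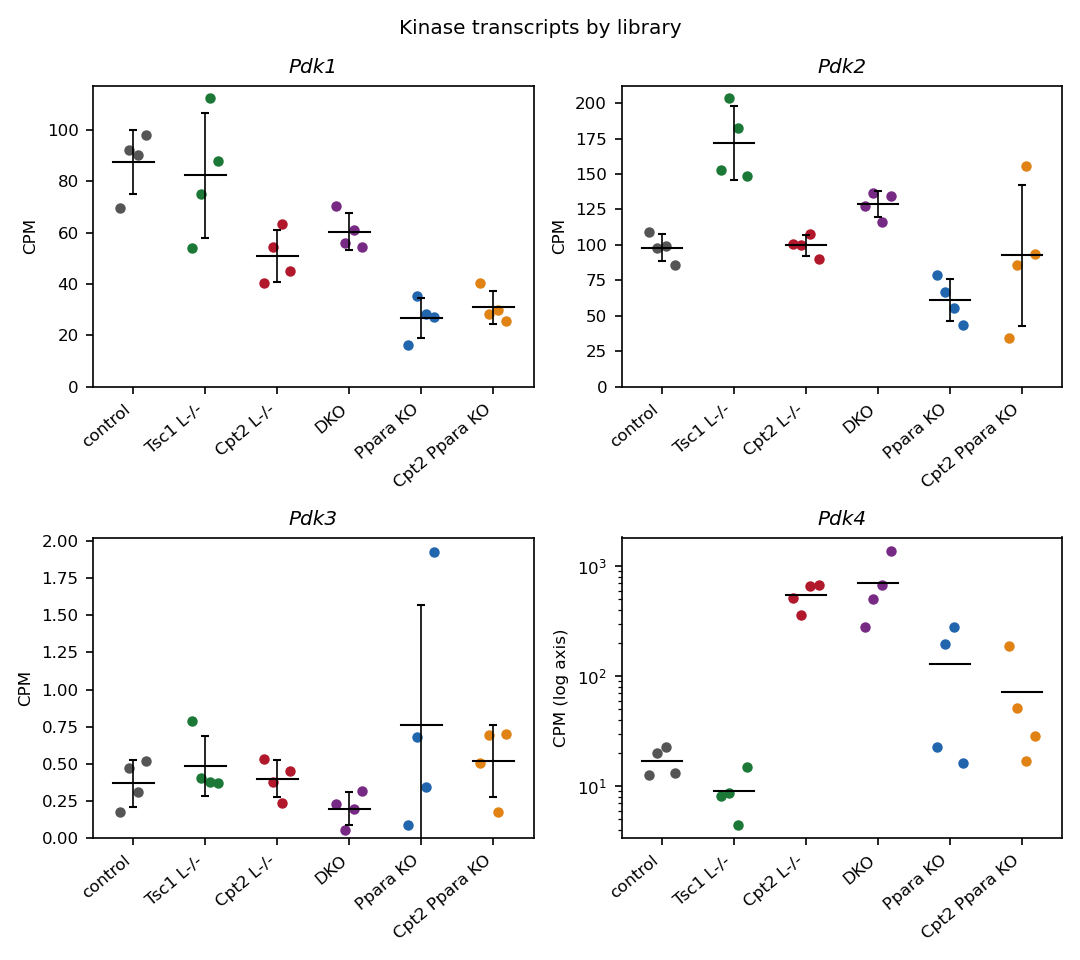
Level of the 4 kinase transcripts in CPM in each of the 24 libraries, by group, on linear axes from 0 for Pdk1, Pdk2 and Pdk3 and on a log axis for Pdk4. Points are libraries, horizontal lines are group means and bars on linear axes are 1 SD, cut off at 0 for Pdk3 in Ppara KO livers. All Cpt2 L-/- and DKO libraries lie at 278 CPM or more for Pdk4, and the mean of Pdk1 is lowest in the 2 groups without Pparα.

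Pdk2 (ENSMUSG00000038967, chr11:95026258-95041354), the broadly expressed kinase of the family, was the member that rose with loss of Tsc1. It was at 109, 98.1, 99.0 and 86.0 CPM in control livers. In Tsc1 L-/- livers it was at 153, 204, 183 and 149 CPM. Every Tsc1 L-/- library lay above every control library, a 1.75-fold rise (log2 0.81, 95% interval 0.56 to 1.06, edgeR adjusted p = 0.000437). The call was lost in a fit of all 24 libraries (0.80, adjusted p = 0.11). Cpt2 L-/- livers had 101, 100, 108 and 90.4 CPM, all inside the control range (difference -0.00, 95% interval -0.25 to 0.24, adjusted p = 0.988). In DKO livers Pdk2 was at 128, 136, 116 and 135 CPM, above all control and Cpt2 L-/- libraries and below all Tsc1 L-/- libraries. Against control it rose by 0.38 on the log2 scale (adjusted p = 0.0168), against Cpt2 L-/- livers by 0.39 (adjusted p = 0.0299), and against Tsc1 L-/- livers it fell by 0.43 (adjusted p = 0.00982). The rise against Cpt2 L-/- livers passed the threshold in 3 of the 8 fits that left out 1 library. In a fit of all 24 libraries these 3 DKO calls were lost (adjusted p = 0.325, 0.417 and 0.252). The interaction of the 2 deletions was -0.42 (95% interval -0.77 to -0.07) with an unadjusted p of 0.0206 and an edgeR adjusted p of 0.176.

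Without Pparα, Pdk2 was at 78.7, 66.6, 55.8 and 43.7 CPM, so that each library lay below each control library. It was 1.61-fold lower than in control livers (log2 -0.68, 95% interval -1.09 to -0.27, edgeR adjusted p = 0.0213), and -0.81 without Ppara KO replicate 1 (adjusted p = 0.00939). The call did not hold without control replicate 1, 2 or 3 or Ppara KO replicate 3 (adjusted p at most 0.0643). The 4 Cpt2 Ppara KO libraries ran from 34.3 CPM in replicate 1 to 156 CPM in replicate 3, with 86.1 and 93.9 CPM in the other two. They overlapped both Ppara KO and Cpt2 L-/- livers, and neither comparison passed the threshold (0.58, adjusted p = 0.32, and -0.11, adjusted p = 0.849). Without Cpt2 Ppara KO replicate 1 these were 0.85 (adjusted p = 0.132) and, with the sign turned, 0.17 (adjusted p = 0.605). The interaction of Cpt2 and Pparα loss for Pdk2 was 0.58 (adjusted p = 0.329) and was called without that library (0.86, adjusted p = 0.0411).

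Pdk1 (ENSMUSG00000006494, chr2:71873224-71903858), the kinase that hypoxia signals induce in many tissues, went the other way from Pdk4 in Cpt2 L-/- and DKO livers. It was at 69.5, 92.2, 90.3 and 97.8 CPM in control livers and at 40.4, 54.3, 63.2 and 45.0 CPM in Cpt2 L-/- livers. The groups did not overlap, and Pdk1 was 1.76-fold lower (log2 -0.81, 95% interval -1.21 to -0.42, edgeR adjusted p = 0.00313). DKO livers had 70.5, 55.8, 60.9 and 54.4 CPM, with 1 library just above the lowest control library. The difference from control was -0.54 (95% interval -0.94 to -0.15, adjusted p = 0.0302), and it passed the threshold in 2 of the 8 fits that left out 1 library and not in a fit of all 24 (adjusted p = 0.0643). Tsc1 L-/- livers spanned 53.8 to 112 CPM, around the control range (-0.09, 95% interval -0.48 to 0.30, adjusted p = 0.845).

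In Ppara KO against control livers, Pdk1 had the largest fall of the tested members. It was at 16.4, 35.4, 28.3 and 27.2 CPM in Ppara KO livers, and none reached the lowest control library. The fall was 3.26-fold (log2 -1.70, 95% interval -2.22 to -1.19, edgeR adjusted p = 0.00086), and it held with each library left out in turn, at -1.52 without Ppara KO replicate 1 (adjusted p = 0.00055). Cpt2 Ppara KO livers were at 40.2, 28.5, 29.8 and 25.5 CPM, with replicate 1 the highest. Against Cpt2 L-/- livers this was -0.72 (95% interval -1.16 to -0.29, adjusted p = 0.0376), or -0.86 without replicate 1 (adjusted p = 0.00495), and the call was lost in the other 7 fits that left out 1 library. Against Ppara KO livers the difference was 0.18 (95% interval -0.38 to 0.75, adjusted p = 0.657). The interaction of Cpt2 and Pparα loss was 0.997 on the log2 scale (95% interval 0.35 to 1.65, adjusted p = 0.0271): Cpt2 loss lowered Pdk1 in livers with Pparα, and no fall was measured in livers without it. It was 0.85 (adjusted p = 0.0487) without Cpt2 Ppara KO replicate 1 and 0.81 (adjusted p = 0.0374) without Ppara KO replicate 1. The call was lost without control replicate 4 or Cpt2 L-/- replicate 1 or 4 (adjusted p = 0.0542 to 0.0632).

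Pdk3 (ENSMUSG00000035232, chrX:93764607-93832201), a kinase known mainly from other tissues, was counted 1 to 28 times per library. Among the main fits it passed the filter on low counts only in that of control, Cpt2 L-/-, Ppara KO and Cpt2 Ppara KO livers. The main pairwise comparisons did not test it. Without Cpt2 Ppara KO replicate 1 it was tested against Cpt2 L-/- livers and not called (0.38, edgeR adjusted p = 0.683). The highest library was Ppara KO replicate 4 at 1.92 CPM. The interaction of Cpt2 and Pparα loss was -0.62 for it (edgeR adjusted p = 0.676).

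The make-up of the kinase transcripts showed the same turn within each library. In control livers Pdk4 was 5.48% to 9.58% of the summed kinase FPKM and Pdk2 was 62.6% to 74%. In Cpt2 L-/- livers Pdk4 was 65.1% to 79.7% of the sum and in DKO livers 53.1% to 84.8%. All 8 libraries with loss of Cpt2 and intact Ppara thus had Pdk4 as the leading kinase transcript, and none of the 8 control and Tsc1 L-/- libraries did. The sum itself was 63.2 ± 5.54 FPKM in control, 96.5 ± 14.97 FPKM in Tsc1 L-/-, 214 ± 39.3 FPKM in Cpt2 L-/- and 291 ± 145 FPKM in DKO livers (SD, n = 4). In Ppara KO livers the share of Pdk4 was 14.6%, 60.7%, 72.8% and 15.5%, and in Cpt2 Ppara KO livers 70.1%, 25%, 6.14% and 14.8%. These 2 groups were therefore mixed, with 3 of their 8 libraries led by Pdk4 and 5 by Pdk2. Tsc1 L-/- livers were led by Pdk2 at 75.6% to 84.1% of the sum.

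**Figure D2:**
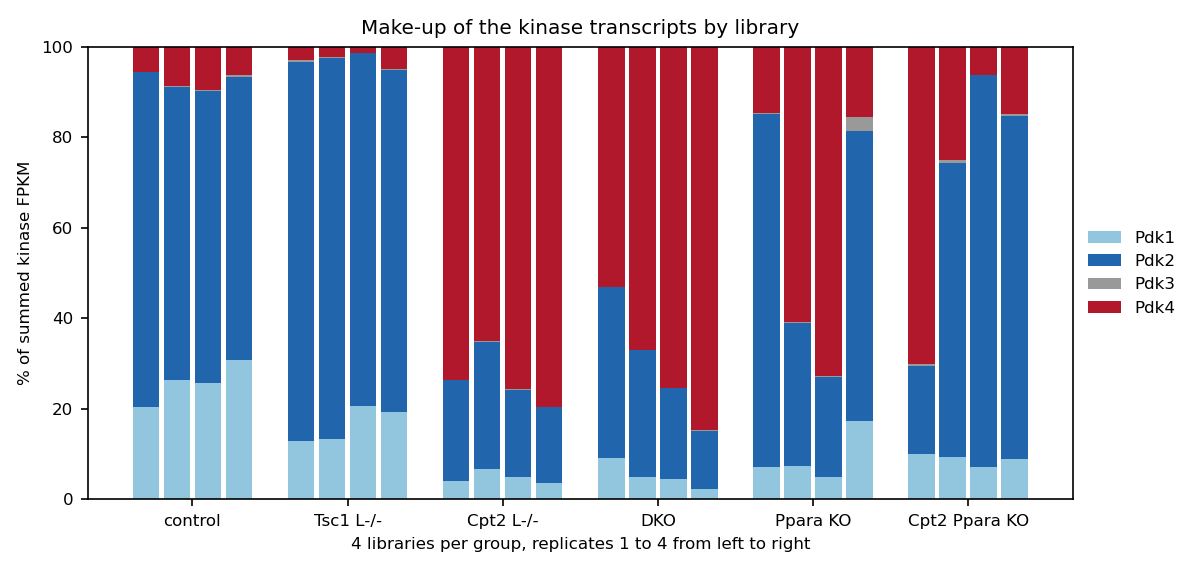
Share of each kinase in the summed FPKM of Pdk1, Pdk2, Pdk3 and Pdk4, in percent, as 1 stacked bar per library with 4 libraries per group. Pdk4 takes 53.1% or more in every Cpt2 L-/- and DKO library and 9.58% or less in every control library, and the groups without Pparα hold libraries of both kinds.

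The phosphatases, which undo the action of the kinases, differed from each other. Pdp1 (ENSMUSG00000049225, chr4:11958184-11966452), the calcium-stimulated form, was a rare transcript counted 16 to 98 times per library. It was at 1.37, 1.69, 0.873 and 1.39 CPM in control livers and at 3.20, 3.17, 3.13 and 4.26 CPM in Cpt2 L-/- livers. The groups did not overlap, and the rise was 2.55-fold (log2 1.35, 95% interval 0.83 to 1.87, edgeR adjusted p = 0.000476). DKO livers, at 2.51 to 3.31 CPM, were also above every control library, with a 2.18-fold rise (log2 1.12, adjusted p = 0.00188), and above every Tsc1 L-/- library (log2 0.89, adjusted p = 0.01, or 0.0864 in a fit of all 24 libraries). Pdp1 therefore rose in the same livers as Pdk4, from a far lower level of 0.301 ± 0.0581 FPKM in control livers. In Ppara KO livers it was at 4.34, 1.20, 2.54 and 3.91 CPM, which overlaps the control range through replicate 2 (log2 1.17, 95% interval 0.27 to 2.08, adjusted p = 0.0555), and without that replicate it was called (1.44, adjusted p = 0.0155). That replicate was picked because it made the overlap, so the call without it is no support for a rise. Cpt2 Ppara KO livers spanned 1.73 to 7.10 CPM. Against Cpt2 L-/- livers this was 0.22 (adjusted p = 0.693), or -0.17 without Cpt2 Ppara KO replicate 1 (adjusted p = 0.74).

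Pdp2 (ENSMUSG00000048371, chr8:104591468-104596836), the phosphatase that insulin and feeding are known to favour in liver, made up nearly all phosphatase transcript in control livers at 11.7 ± 1.81 FPKM. It was at 33.5 to 49.4 CPM in control, 34.0 to 44.1 CPM in Cpt2 L-/- and 31.9 to 55.7 CPM in DKO livers, ranges that overlap throughout. The edgeR differences from control were -0.11 (95% interval -0.60 to 0.38) and -0.08 (95% interval -0.57 to 0.41). In Cpt2 Ppara KO livers Pdp2 was at 10.9, 12.2, 16.3 and 9.42 CPM, and none reached the lowest Cpt2 L-/- library. It was 3.30-fold lower than in Cpt2 L-/- livers (log2 -1.72, 95% interval -2.16 to -1.28, adjusted p = 0.00102), and -1.67 without Cpt2 Ppara KO replicate 1 (adjusted p = 0.000127). Ppara KO livers were split, at 9.82, 58.1, 22.7 and 10.9 CPM, with replicate 2 above every control library and the other 3 below. That difference from control did not pass the threshold (-0.73, 95% interval -1.86 to 0.40, adjusted p = 0.303), and it did without replicate 2 (-1.56, adjusted p = 0.00565). As for Pdp1, that replicate was picked for its value, so the call without it is no support for a fall.

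Set against each other per length, the summed kinases exceeded the summed phosphatases in every library. The ratio of the sums was 4.62 to 6.62 in control, 15.02 to 19.95 in Cpt2 L-/- and 14.1 to 27.9 in DKO livers. Control livers thus overlapped with neither, nor with Tsc1 L-/- or Cpt2 Ppara KO livers. In Tsc1 L-/- livers it was 6.80 to 18.3, where the highest value, in replicate 2, goes with the lowest Pdp2 of that group at 19.3 CPM. In Ppara KO livers it was 11.6, 5.53, 15.7 and 7.46, which overlaps the control range through replicate 2. In Cpt2 Ppara KO livers it was 13.6 to 16.2, with kinases summing to 67.9 ± 11.6 FPKM and phosphatases to 4.45 ± 0.500 FPKM. The ratio describes transcripts and is no measure of enzyme activity.

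The E1 subunits form the enzyme on which the kinases and phosphatases act. Pdha1 (ENSMUSG00000031299, chrX:160122209-160138413), the X-linked alpha subunit that carries the phosphorylated serines, was at 91.5 to 145 CPM over all 24 libraries and passed the threshold in none of the 10 comparisons. Against control the difference was -0.18 in Cpt2 L-/- livers (95% interval -0.38 to 0.03), 0.04 in DKO livers (95% interval -0.17 to 0.24) and 0.12 in Ppara KO livers (95% interval -0.27 to 0.50).

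Pdhb (ENSMUSG00000021748, chr14:8165991-8172992), the beta subunit, was at 129, 109, 130 and 115 CPM in control livers and at 98.3, 98.6, 81.3 and 73.7 CPM in Cpt2 L-/- livers. Every Cpt2 L-/- library lay below every control library, a fall of 0.48 on the log2 scale (95% interval -0.78 to -0.18, edgeR adjusted p = 0.0151). It passed the threshold in 4 of the 8 fits that left out 1 library and not in a fit of all 24 (adjusted p = 0.128). DKO livers had 133, 136, 128 and 162 CPM, all above every Cpt2 L-/- library, and the rise was 1.61-fold (log2 0.69, 95% interval 0.38 to 0.99, adjusted p = 0.00355), a call lost in a fit of all 24 libraries (0.67, adjusted p = 0.0634). DKO and control livers overlapped (0.20, 95% interval -0.10 to 0.50). The interaction of Tsc1 and Cpt2 loss was 0.53 for Pdhb and 0.37 for Pdha1, with unadjusted p of 0.0163 and 0.0165 and an edgeR adjusted p of 0.16 for both. Of the runs of 75 bases in the Pdhb transcripts, 6.86% also occur in the annotated gene Gm6123, so some of its reads could be counted elsewhere.

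Of the pyruvate carrier, Mpc1 was read more and Mpc2 less in Cpt2 L-/- and DKO livers than in control livers. Mpc2 (ENSMUSG00000026568, chr1:165461037-165481214) was at 262, 271, 227 and 232 CPM in control livers and at 165, 209, 192 and 158 CPM in Cpt2 L-/- livers. The groups did not overlap, and the fall was 0.48 on the log2 scale (95% interval -0.76 to -0.21, edgeR adjusted p = 0.00957). In DKO livers, at 147 to 197 CPM, it fell by 0.53 (adjusted p = 0.00425). Neither call passed in a fit of all 24 libraries (adjusted p = 0.148 and 0.082). Ppara KO livers had 116, 175, 141 and 107 CPM, the lowest mean of the 6 groups, 1.84-fold below control (log2 -0.88, 95% interval -1.30 to -0.47, adjusted p = 0.00725), and -0.81 without Ppara KO replicate 1 (adjusted p = 0.0143). In Tsc1 L-/- livers Mpc2 was at 201, 208, 151 and 204 CPM, below every control library, and did not pass the threshold (-0.38, 95% interval -0.66 to -0.11, adjusted p = 0.0932). Cpt2 Ppara KO livers spanned 110 to 321 CPM, the highest in replicate 1. Against Cpt2 L-/- livers Mpc2 was at 0.12 (adjusted p = 0.792), or -0.20 without that library (adjusted p = 0.562).

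Mpc1 (ENSMUSG00000023861, chr17:8282904-8297661) shares reads with a copy. The pseudogene Mpc1-ps (ENSMUSG00000091498, chr12:110858565-110858894) is 330 bases long, and 84% of its runs of 75 bases, the length of 1 read, occur unchanged in Mpc1 transcripts. The first shared run, from the GENCODE M21 transcripts, is shown because a read of these bases fits both genes equally.
Mpc1 and Mpc1-ps: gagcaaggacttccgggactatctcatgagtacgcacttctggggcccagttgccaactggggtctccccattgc
Mpc1 was at 12.0, 8.24, 9.14 and 13.4 CPM in control livers and at 21.2, 25.6, 14.7 and 11.0 CPM in Cpt2 L-/- livers. Replicates 1, 2 and 3 lay above the control range and replicate 4 inside it. The rise passed the threshold for the Mpc1 row alone (log2 0.74, 95% interval 0.24 to 1.24, edgeR adjusted p = 0.0252) and not when Mpc1-ps counts were added to it (0.38, adjusted p = 0.153) or in a fit of all 24 libraries (adjusted p = 0.0937). In DKO livers Mpc1 was at 24.2, 14.9, 19.6 and 25.3 CPM, all above the control range, and rose by 0.97 (adjusted p = 0.00428) or, with Mpc1-ps added, by 0.78 (adjusted p = 0.00497). Against Tsc1 L-/- livers, at 10.2 to 13.5 CPM, the rise in DKO livers was 0.86 (adjusted p = 0.00993) or 0.72 with Mpc1-ps (adjusted p = 0.00897), and 0.85 in a fit of all 24 libraries (adjusted p = 0.0513). Mpc1-ps itself was at 14.3 to 17.0 CPM in control and 19.4 to 28.9 CPM in DKO livers. In Cpt2 Ppara KO replicate 1 both were at their highest over the 24 libraries, Mpc1 at 37.7 CPM and Mpc1-ps at 60.4 CPM. Against Cpt2 L-/- livers Mpc1 was at 0.12 (adjusted p = 0.84), or -0.37 without this library (adjusted p = 0.345).

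**Figure D3:**
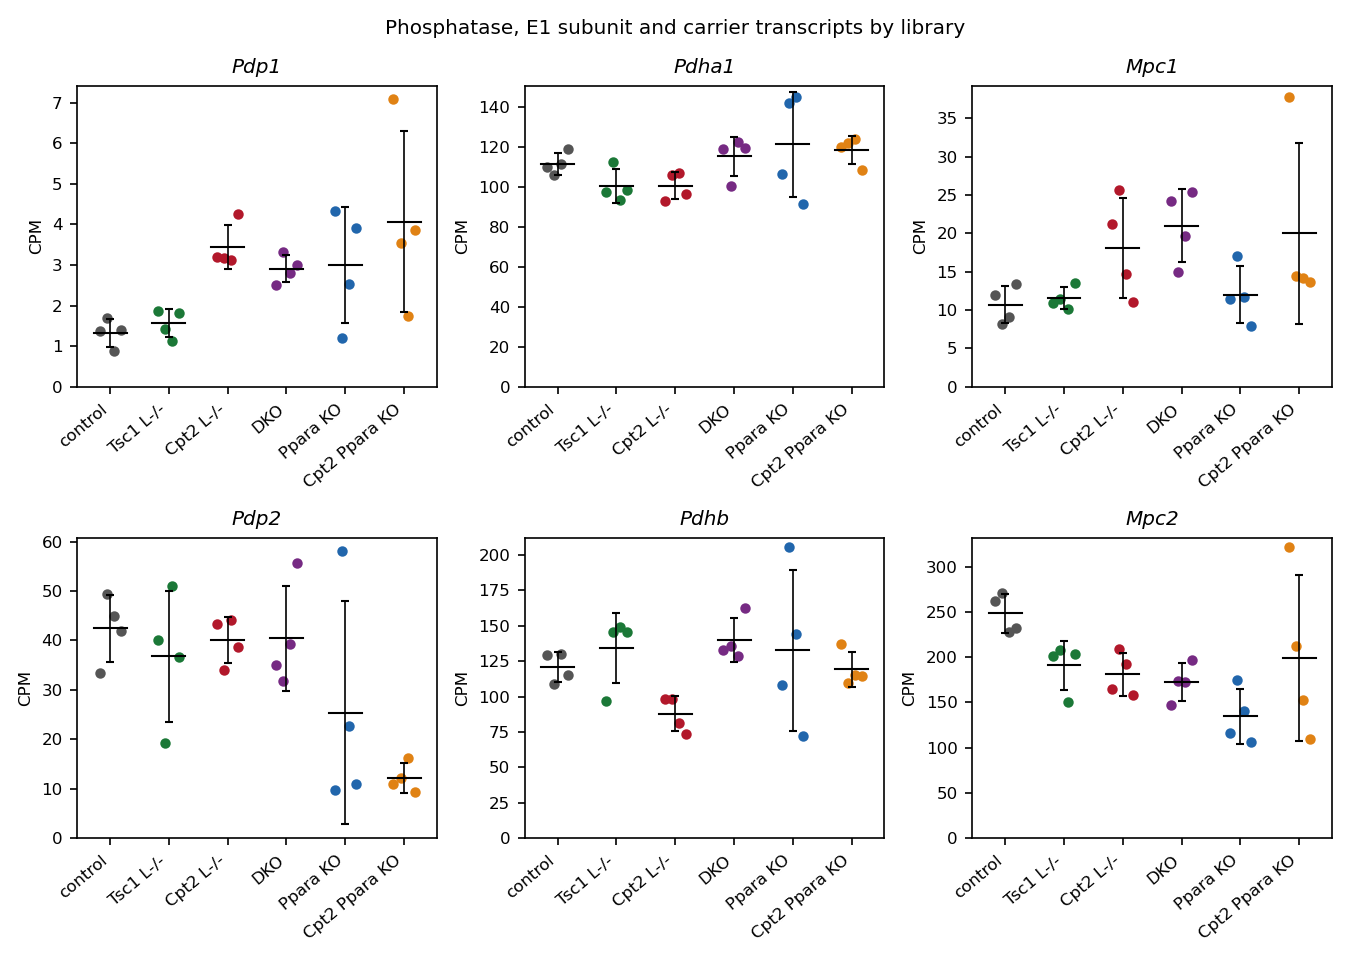
Level of the phosphatase (Pdp1, Pdp2), E1 subunit (Pdha1, Pdhb) and carrier (Mpc1, Mpc2) transcripts in CPM in each of the 24 libraries, by group. Points are libraries, horizontal lines are means and bars are 1 SD. Pdp1 is at 3.13 CPM or more in every Cpt2 L-/- library and at 1.69 CPM or less in every control library, and Pdp2 is at 16.3 CPM or less in every Cpt2 Ppara KO library.

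Members called were counted and read against all tested genes. In Tsc1 L-/- against control livers 1 of 9 tested members was called higher and 0 lower with edgeR, where 4.16% of all tested genes were called higher and 2.48% lower. An unadjusted p under 0.05 was reached by 2 members, and by 21% of all tested genes. In Cpt2 L-/- against control livers 3 were higher (Pdk4, Pdp1, Mpc1) and 3 lower (Pdk1, Pdhb, Mpc2), beside 16.2% and 14.9% of all tested genes. DKO against control livers had 4 higher (Pdk2, Pdk4, Pdp1, Mpc1) and 2 lower (Pdk1, Mpc2), beside 19.3% and 17.1%. These comparisons share their control libraries. The member differences had a median of -0.11 in Cpt2 L-/- and 0.20 in DKO livers, beside -0.02 and 0.02 over all tested genes.

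Between DKO and Cpt2 L-/- livers 2 of 9 members were called higher (Pdk2, Pdhb) and 0 lower, where 10.9% and 7.4% of all tested genes were. Between DKO and Tsc1 L-/- livers 3 were higher (Pdk4, Pdp1, Mpc1) and 1 lower (Pdk2), beside 16.9% and 15.2%. The interaction of Tsc1 and Cpt2 loss passed the edgeR threshold for 0 members in either direction, beside 1.09% and 1.28%, and 3 members (Pdk2, Pdha1, Pdhb) had an unadjusted p under 0.05, as did 18.9% of all tested genes. It was also 0 members with DESeq2, which called 752 genes over all.

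In Ppara KO against control livers 1 of 9 members was called higher (Pdk4) and 3 lower (Pdk1, Pdk2, Mpc2), beside 14.8% and 12.7% of all tested genes. In Cpt2 Ppara KO against Cpt2 L-/- livers 0 were higher and 3 lower (Pdk1, Pdk4, Pdp2), beside 6.88% and 6.1%. Against Ppara KO livers 0 members were called by edgeR and 0 had an unadjusted p under 0.05, which 30% of all tested genes had. Among all tested genes edgeR called 0.462% higher and 0.407% lower there. DESeq2 also called 0 members, where it called 2028 genes over all. The interaction of Cpt2 and Pparα loss was called for Pdk1 in the higher and Pdk4 in the lower direction among 10 tested members, beside 12% and 12%. Mpc2, at 1.02 on the log2 scale with an adjusted p of 0.05, lay at the threshold and was not called, and it was 0.69 without Cpt2 Ppara KO replicate 1 (adjusted p = 0.0987).

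**Figure D4:**
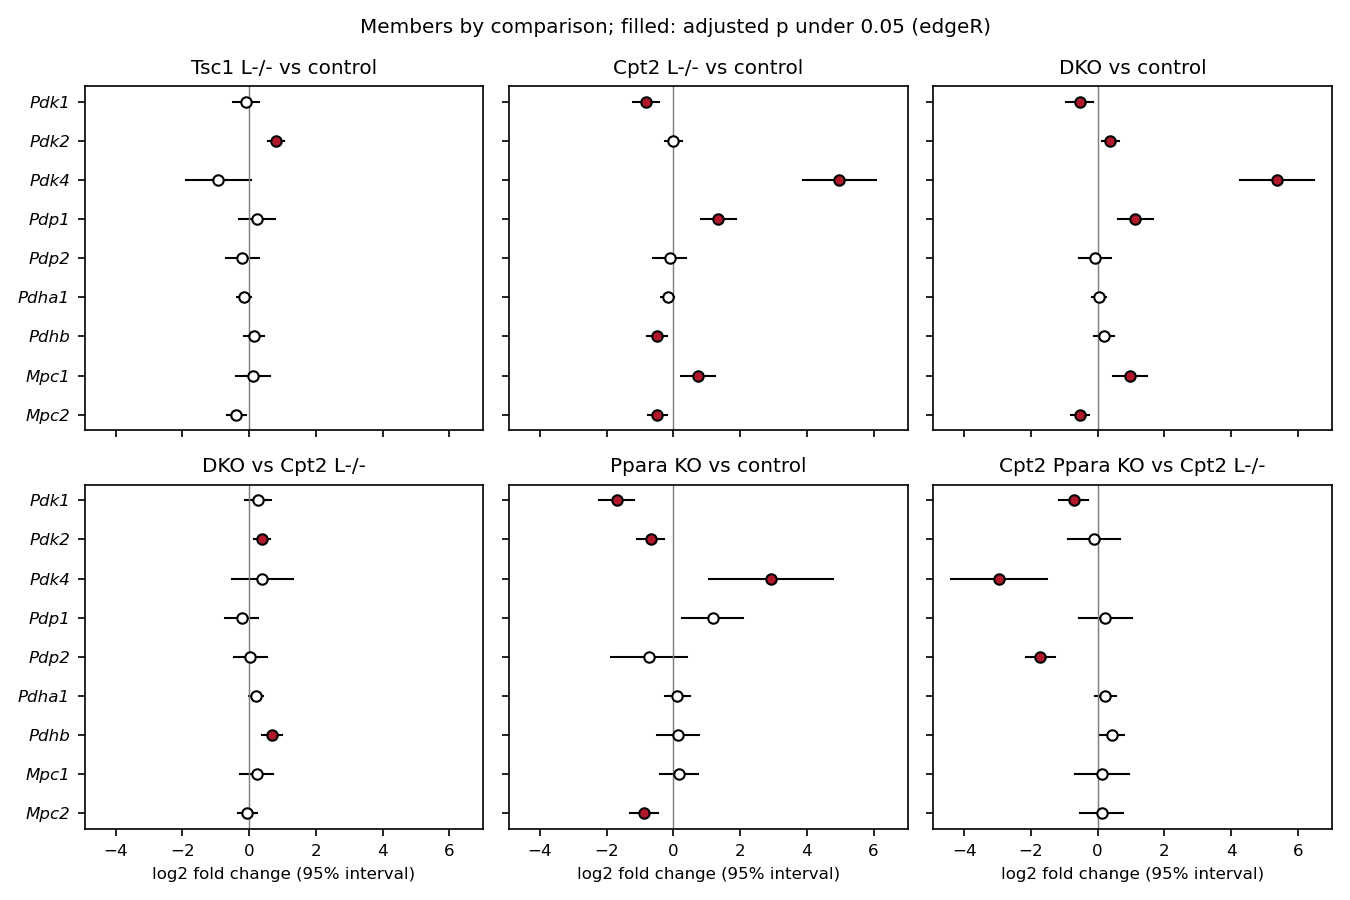
Log2 fold change of the 9 members tested in 6 comparisons, with 95% intervals from edgeR as lines and filled points for an adjusted p under 0.05. Pdk4 lies at 4.97 and 5.37 in Cpt2 L-/- and DKO against control livers and at -2.95 in Cpt2 Ppara KO against Cpt2 L-/- livers, and the other members lie between -1.72 and 1.35 in these 6 comparisons.

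The remaining subunits of the complex were higher in DKO than in Cpt2 L-/- livers. Of 8 tested genes for these subunits and for cofactors, 4 were higher and 0 lower in DKO against Cpt2 L-/- livers (median 0.37, beside -0.01 over all tested genes, of which 10.9% were higher and 7.4% lower). These were Dlat, the E2 acetyltransferase core (0.38, edgeR adjusted p = 0.011), Dld, the E3 dehydrogenase (0.39, adjusted p = 0.00682), Pdhx, which tethers E3 (0.54, adjusted p = 0.00849), and Lias, which makes the lipoyl cofactor (0.48, adjusted p = 0.00172). Dlat was at 72.6 to 84.7 CPM in DKO and 57.8 to 64.3 CPM in Cpt2 L-/- livers, without overlap, and its interaction of the 2 deletions was 0.52 (adjusted p = 0.0496), the single call of this list there. In Cpt2 L-/- against control livers 1 was higher (Lipt2, 1.09) and 2 lower (Dld, -0.30, and Lipt1, -0.51), with a median of -0.09, beside 16.2% and 14.9% of all tested genes. In DKO against control livers 4 were higher and 0 lower, beside 19.3% and 17.1%, and in Tsc1 L-/- against control livers 0 passed the edgeR threshold, beside 4.16% and 2.48%, and 1 had an unadjusted p under 0.05, beside 21%.

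Genes that make, use or move pyruvate outside the complex changed in both directions. Of 16 tested, 5 were higher and 5 lower in DKO against control livers (median -0.25), beside 19.3% and 17.1% of all tested genes. Pck2, the mitochondrial carboxykinase, rose 3.13 on the log2 scale (edgeR adjusted p = 4.16e-06), from 3.49 ± 0.708 CPM to 30.7 ± 7.55 CPM (SD, n = 4). Sds, which turns serine into pyruvate, fell by 4.28 (adjusted p = 0.000346), from 129 ± 98.8 CPM to 6.74 ± 3.17 CPM. Slc16a1, the lactate and pyruvate transporter of the cell membrane, rose 1.66 (adjusted p = 9.31e-07), and Pcx, which carboxylates pyruvate to oxaloacetate, fell by 0.85 (adjusted p = 0.000491). In Cpt2 L-/- against control livers 3 were higher and 2 lower (median -0.17), beside 16.2% and 14.9%, led by Pck2 at 2.03 (adjusted p = 0.00025) and Sds at -1.69 (adjusted p = 0.0466). In Tsc1 L-/- against control livers 1 was higher, Pck2 (1.26, adjusted p = 0.0316), and 2 lower, Ldha (-0.89, adjusted p = 0.0305) and Pcx (-0.78, adjusted p = 0.00664), beside 4.16% and 2.48%.

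Without Pparα, 2 of these 16 genes were higher and 5 lower than in control livers (median -0.01), beside 14.8% and 12.7% of all tested genes. Ldha, the lactate dehydrogenase subunit A, was at 320 to 518 CPM in Ppara KO and 1182 to 2068 CPM in control livers, a difference of -2.12 (edgeR adjusted p = 0.000293), or -2.29 without Ppara KO replicate 1 (adjusted p = 0.000262). Pck2 rose 1.74 (adjusted p = 0.00114), or 1.82 without that library (adjusted p = 0.00148). Also without it, the alanine transaminase gene Gpt2 lost its call (0.999 to 0.74, adjusted p = 0.0462 to 0.0979) and Gpt gained one (0.50 to 0.72, adjusted p = 0.216 to 0.0277). In Cpt2 Ppara KO against Cpt2 L-/- livers 0 were higher and 2 lower, Pcx (-1.03, adjusted p = 0.047) and Slc16a1 (-1.07, adjusted p = 0.0223), beside 6.88% and 6.1%. Without Cpt2 Ppara KO replicate 1 these were -0.80 (adjusted p = 0.0176) and -1.38 (adjusted p = 9.51e-05), and 3 of the 16 were called higher and 4 lower, beside 9.04% and 8.93% of all genes tested in that fit.

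The branched-chain ketoacid dehydrogenase is built like the pyruvate complex and has a kinase of the same family. That kinase, Bckdk, passed the threshold in none of the comparisons, with 0.35 in Cpt2 L-/- (edgeR adjusted p = 0.109) and 0.31 in DKO against control livers (adjusted p = 0.146). Of the 5 genes of this set, 0 were higher and 3 lower in DKO against control livers (median -0.62), beside 19.3% and 17.1% of all tested genes, and 0 higher and 2 lower in Cpt2 L-/- livers (median -0.22), beside 16.2% and 14.9%. Dbt, its E2 core, fell by 0.94 in Cpt2 L-/- (adjusted p = 1.6e-05) and by 1.03 in DKO livers (adjusted p = 4.38e-06). Ppm1k, its phosphatase, fell by 0.83 in DKO livers (adjusted p = 0.0356). In Cpt2 Ppara KO against Cpt2 L-/- livers 1 of the 5 was called higher, Dbt, and 0 lower, beside 6.88% and 6.1% of all tested genes. Its rise was 0.93 (edgeR adjusted p = 0.035), or 1.125 without Cpt2 Ppara KO replicate 1 (adjusted p = 0.000579).

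Among 11 transcription factors and coactivators known to act on Pdk genes, 4 were higher and 0 lower in Cpt2 L-/- against control livers (median 0.16), beside 16.2% and 14.9% of all tested genes. They were Hif1a (0.70, edgeR adjusted p = 0.000177), the receptors Pparg (0.60, adjusted p = 0.0336) and Ppard (0.49, adjusted p = 0.0416), and Esrra (0.48, adjusted p = 0.0227). Ppara itself did not pass the threshold there (0.29, adjusted p = 0.223). In DKO against control livers 2 were higher and 5 lower (median -0.54), beside 19.3% and 17.1%, and the lower ones included Foxo1 (-0.98, adjusted p = 0.00765) and the glucocorticoid receptor Nr3c1 (-0.61, adjusted p = 0.00975). In Ppara KO against control livers 0 were higher and 3 lower, beside 14.8% and 12.7%: Ppara, the coactivator Ppargc1a (-1.33, adjusted p = 0.0252, or -1.54 and 0.0207 without Ppara KO replicate 1) and Esrrg, which was counted 26 to 100 times per library in control livers and 4, 0, 0 and 0 times in Ppara KO livers.

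**Figure D5:**
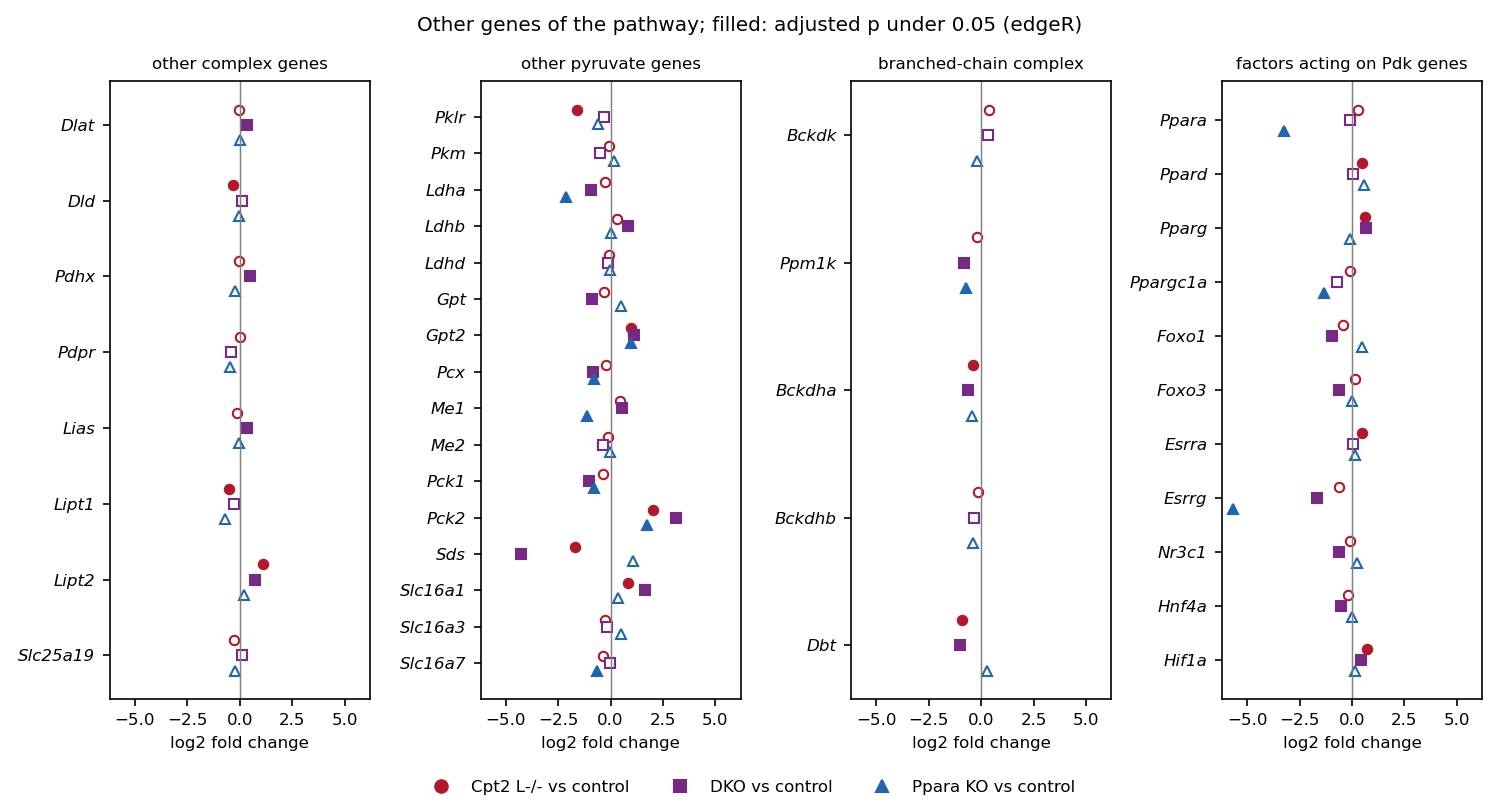
Log2 fold change of the other genes of the complex, of pyruvate metabolism, of the branched-chain complex and of the factors known to act on Pdk genes, in Cpt2 L-/- (circles), DKO (squares) and Ppara KO livers (triangles) against control livers. Filled symbols have an edgeR adjusted p under 0.05. Pck2 lies to the right in all 3 comparisons, Sds lies at -4.28 in DKO livers, and Bckdk has open symbols throughout.

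Over the 24 libraries, the genes whose log2 CPM followed Pdk4 most closely were Adprhl2 (Pearson r = 0.921), Zfand2a (0.905), Synpo (0.896), Plin2 (0.893) and Pabpc4 (0.888). Plin2, a coat protein of lipid droplets, had a mean of 494 CPM in control, 3230 CPM in Cpt2 L-/-, 2850 CPM in DKO, 872 CPM in Ppara KO and 1430 CPM in Cpt2 Ppara KO livers. From Ppara KO to Cpt2 Ppara KO livers the mean of Plin2 was thus higher and that of Pdk4 lower. Among the members, Mpc1 was the one nearest to Pdk4 (r = 0.627), Pdk1 and Pdp2 were each other's nearest (r = 0.721), and so were Pdha1 and Pdhb (r = 0.611). The points of these correlations share the 6 groups, so a like order of group means is enough to give a high value.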

How the data were processed

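Liver RNA was sequenced in 24 stranded mRNA libraries. The authors deposited read counts per gene (whole numbers, not normalized, 35275 genes with Ensembl identifiers and GRCm38 coordinates) and FPKM values, which were recomputed from the counts within a relative difference of 9.11e-07. The submitters' processing notes name STAR 2.5, HTSeq 0.6.1, Bowtie 0.12.2, TopHat, edgeR and DESeq2 without their roles. The strand setting of the counting is not given in the sources used here, so reads of antisense or overlapping neighbours (Gm11513 at Pdk2, Map3k15 at Pdha1, 4930506C21Rik at Mpc1) may be shared. Of the genes found in GENCODE M21, 72.2% had the same start and end there.

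Groups came from the labels. Counts were tested in R 4.3.3 with edgeR 4.0.16 (filterByExpr with a minimum count of 10, TMM, robust quasi-likelihood test, Benjamini-Hochberg adjustment over all genes tested, threshold 0.05, no covariates). Control, Tsc1 L-/-, Cpt2 L-/- and DKO livers shared 1 fit of 16 libraries. The Ppara KO comparisons used 8 libraries each, and their interaction 1 fit of 16. CPM are edgeR values after TMM over 24 libraries. Precision is set by 4 libraries per group and 14470968 to 20371204 counts per library. Alternatives were RLE size factors, no filter, DESeq2 1.42.0, limma 3.58.1 on log2(FPKM + 1) and log2(FPKM + 0.1), other sets of libraries in the fit, a replicate block, each library left out and, chosen after seeing the data, Mpc1-ps counts added to Mpc1 and the listed genes without the 2 libraries that stand apart. The fit without Ppara KO replicate 2 was singled out for Pdp1 and Pdp2 after their values were seen. The edgeR script was tested on simulated data. No 2 libraries of a group were duplicates: over 36 pairs the smallest chi-square per degree of freedom was 24.1.

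The 10 members were named by symbol and all are described. From the other lists, genes past the threshold and the 2 largest differences could be named, and 1 gene of these lists is not reported here. Members and lists were chosen with earlier results of these data known. Promoter windows are from RefSeq (GRCm38.p6), where 9 of the 10 members had one. Figures were drawn with matplotlib.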

Additional observations from a re-analysis of the deposited data

Results flagged for a closer look

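Of 60 sets of 4 libraries (10 members in 6 groups), 6 had 1 library far from the other 3, where chance gives about 1 in 20. Pdk3 was at 0.786 CPM in Tsc1 L-/- replicate 1, beside 0.374 to 0.407 CPM in the others of its group, and rests on 13 counts. Pdp1 was at 4.26 CPM in Cpt2 L-/- replicate 4, beside 3.13 to 3.20 CPM. Pdha1 was at 100.6 CPM in DKO replicate 2, beside 118.7 to 122 CPM. Pdhb was at 97.2 CPM in Tsc1 L-/- replicate 1, beside 145.5 to 149 CPM, and Mpc2 was at 150.6 CPM in Tsc1 L-/- replicate 3, beside 201 to 208 CPM. Mpc1 was at 37.7 CPM in Cpt2 Ppara KO replicate 1, beside 13.6 to 14.5 CPM, in the library where Tsc1, Cpt2 and Ppara also differed from the rest of its group. The part of that library's composition in the Mpc1 value was not tested.

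The effect of Cpt2 loss differed between livers with and without Pparα for 2 of 10 tested members, by the interaction term of edgeR. It was 0.997 on the log2 scale for Pdk1 (adjusted p = 0.0271) and -5.86 for Pdk4 (adjusted p = 0.00334). Among all tested genes this term was called higher for 12% and lower for 12%. The Pdk1 call was lost in some fits that left out a single library, as given above.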

How the results depend on the processing

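Over the alternatives, 495 of 565 values of called members and of Pdk4 kept their direction and their side of the threshold, 69 lost the call and 1 reversed: Pdk4 in DKO against Cpt2 L-/- livers, at -0.15 (edgeR adjusted p = 0.819) without DKO replicate 4, where leaving out the other libraries gave up to 0.659. The rise of Pdk4 in Cpt2 L-/- against control livers (4.79 to 5.17) and its interaction of Cpt2 and Pparα loss (-7.01 to -5.16) kept their calls in every alternative. Of 184 counts of called members, 163 stayed within 1.5 times the reported count. In a fit of all 24 libraries the count moved from 1 to 0 in Tsc1 L-/- against control (Pdk2), to 3 in both Cpt2 L-/- (without Pdhb, Mpc1 and Mpc2) and DKO against control (without Pdk1, Pdk2 and Mpc2), to 0 in DKO against Cpt2 L-/- (Pdk2, Pdhb), to 1 in DKO against Tsc1 L-/- livers (Pdk4 stayed), and from 0 to 1 (Pdp2) in Cpt2 Ppara KO against Ppara KO livers. With 1 library left out it was 1 to 2 in DKO against Cpt2 L-/- livers (lowest without Cpt2 L-/- 3 or 4 or DKO 1, 2 or 4), 2 to 5 in Ppara KO against control (2 without control 1, 2 or 3 or Ppara KO 3, and 5, with Pdp1 and Pdp2 gained and Pdk4 lost, without Ppara KO 2), 1 to 3 in Cpt2 Ppara KO against Cpt2 L-/- (without Cpt2 L-/- 3 or 4 or Cpt2 Ppara KO 2), and 1 to 3 in the interaction of Cpt2 and Pparα loss (without control 4 or Cpt2 L-/- 1 or 4, and 3, with Pdk2, without Cpt2 Ppara KO 1). In the fit of all 24 libraries, genes called over all fell from 906 to 400 in Tsc1 L-/- against control livers. They fell from 4235 to 2798 in Cpt2 L-/- against control and from 2494 to 1065 in DKO against Cpt2 L-/- livers. In Cpt2 Ppara KO against Ppara KO livers they rose from 111 to 4311. The cause of these moves was not tested.

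Pdp1 in Ppara KO against control livers was also called in DESeq2, the fit of all 24 libraries and the fit of the 4 groups of the Pparα design. Mpc2 in the interaction of Cpt2 and Pparα loss was called in DESeq2, both limma fits, the fit of all 24 libraries and the fit with the block. The rise of Pdk4 in Ppara KO livers was also lost with no filter on low counts (adjusted p = 0.126) and in limma on log2(FPKM + 1) (1.86, adjusted p = 0.0976) and log2(FPKM + 0.1) (adjusted p = 0.0944), and its fall in Cpt2 Ppara KO against Cpt2 L-/- livers with no filter (adjusted p = 0.0632). In Cpt2 L-/- against control livers Mpc1 was lost in a fit of these groups alone (adjusted p = 0.0544) and Pdhb in limma (adjusted p = 0.109 and 0.111). Low genes such as Pdp1 and Pdk3 rest on few counts, and limma with a pseudocount of 1 understates their change.

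Counts over all genes differed by more than 1.5 times as follows. Tsc1 L-/- against control gave 906 genes, 400 with all 24 libraries, 466 with these groups alone and 583 to 967 with 1 library left out. Cpt2 L-/- against control gave 4235, or 2798 with all 24. DKO against Cpt2 L-/- gave 2494, 1065 with all 24 and 1428 to 2498 with 1 left out. The interaction of Tsc1 and Cpt2 loss gave 324, 752 in DESeq2, 195 in limma with a pseudocount of 0.1, 65 with all 24 and 150 to 403 with 1 left out. Ppara KO against control gave 3559, or 2321 to 4177 with 1 left out. Cpt2 Ppara KO against Cpt2 L-/- gave 1679, 2847 in DESeq2, 3239 with all 24 and 625 to 2541 with 1 left out. Cpt2 Ppara KO against Ppara KO gave 111, 368 with no filter, 2028 in DESeq2, 916 with the block, 208 and 196 in limma, 4311 with all 24, 3475 with the 4 groups of the Pparα design and 2 to 725 with 1 left out.

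Replicate numbers did not pair the samples: of 32 same-numbered pairs, 5 had a correlation over 0.1 (range -0.255 to 0.165). With the replicate number as a block, 1 member lost its call, Pdk4 in Ppara KO against control livers (2.05, adjusted p = 0.0733), and 3 members in place of 4 were called there.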

Other observations

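Markers of muscle and fat were highest in 2 single libraries. Cpt2 Ppara KO replicate 4 had a summed level of 16.1 CPM of 4 skeletal and heart muscle markers, where all control libraries were at 0 and the other 19 at 0.317 CPM or less. Cpt2 L-/- replicate 2 had 3.3 CPM of 3 adipocyte markers, where every other library was at 0.289 CPM or less. Exocrine pancreas markers reached 0.731 CPM, in Ppara KO replicate 1, and 0.151 CPM or less elsewhere. Muscle and fat express Pdk4 as well. Its level was 28.4 CPM in the first of these libraries, inside the range of the other 3 of its group, and 358 CPM in the second, the lowest of its group. Without Cpt2 Ppara KO replicate 4 the difference in Pdk4 from Cpt2 L-/- livers was -2.68 (edgeR adjusted p = 0.0255), and without Cpt2 L-/- replicate 2 the difference from control was 5.13 (adjusted p = 2.12e-05).

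The ratio of Mpc2 to Mpc1 in FPKM was highest in control livers, at 5.52 to 10.4. It was 4.70 to 5.83 in Tsc1 L-/-, 2.47 to 4.55 in Cpt2 L-/-, 1.93 to 3.69 in DKO, 3.21 to 4.28 in Ppara KO and 2.56 to 4.67 in Cpt2 Ppara KO livers, so that of these 5 groups Tsc1 L-/- alone overlapped with control. Reads shared with Mpc1-ps can enter this ratio.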
